A study of Macaca mulatta with 8 samples.

Results

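Wnt proteins are secreted, lipid-modified glycoproteins that act over short distances on Frizzled receptors, most of them through beta-catenin and TCF/LEF factors and some through branches that steer cell polarity and movement. In the vertebrate neural tube they are made in restricted places, among them the dorsal midline, the cortical hem at the edge of the cerebral cortex and the border between midbrain and hindbrain, and they act there on dorsal fate, growth and regional identity. The genes described here are 9 Wnt ligands (WNT1, WNT2B, WNT3A, WNT4, WNT5A, WNT5B, WNT7A, WNT7B and WNT8B) and the receptor FZD10. They were taken by name, and each had 1 row, 10 of the 12613 rows of the deposited table, which stand under 12460 gene symbols. WNT5B stands there as LOC721685 and was named from a later rhesus gene table.

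Poly-A mRNA of the rhesus monkey embryonic stem cell line IVF3.2, with no genetic change, was sequenced at 4 stages of neural differentiation, with 1 library per stage made from a pool of many repeats. ESCs were undifferentiated cells on mouse fibroblast feeders. R-NSCP1 were neural rosettes at passage 1, picked by hand and kept with SHH at 200 ng/mL, FGF8 at 100 ng/mL and BDNF at 20 ng/mL. R-NSCP6 were the cells of the whole dish at passage 6, when rosettes no longer formed, kept with SHH, Dll4 and Jagged-1 at 500 ng/mL each and BDNF at 20 ng/mL, and NPCs were kept for over 100 days with FGF2, EGF and BDNF at 20 ng/mL each. All 3 neural media held ascorbic acid at 0.2 mM. Stage, medium and way of collection cannot be told apart, and the cells come from 1 line. In bulk RNA, fewer cells of a type and less RNA per cell cannot be told apart either.

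In what follows, passage 1 and passage 6 stand for R-NSCP1 and R-NSCP6. Values are FPKM, mapped fragments scaled by transcript length and library depth. Levels of different genes, and shares and ratios between them, are thus only as good as the gene models behind the lengths, which were not checked. With 1 library per stage no spread between replicates was measured and no test was made. Stages were compared by rules of size. A gene was prevalent in a stage, by the study's own rule, with at least 3 FPKM there and at least 2 times its second highest stage, and higher or lower between stages past 2-fold where the higher value was at least 3 FPKM. Log2 ratios are of FPKM + 1, which makes the differences of low genes look smaller. The depth behind a single FPKM is unknown, and genes that every cell uses are at 0 in some stages, so a 0 is given only as listed at 0. The summed FPKM ranged from 491243 at passage 1 to 999473 in ESC, and the most abundant row of a library took between 3.99% and 20.6% of its sum, so the ratios, prevalence calls and list counts were also computed under 4 other scalings between libraries. Marker genes matched the labels of ESC and NPC: the 5 pluripotency markers were all prevalent in ESC, where they summed to 2750 FPKM, and the 5 astroglial markers were all prevalent in NPC, where they summed to 1188 FPKM. The pluripotency marker LIN28A (LOC719865) was still at 101 FPKM at passage 1. As deposited, none of the 5 neural stem cell markers was prevalent in R-NSCP1 or R-NSCP6 and 1, FABP7, was in NPC. Their sum was 257 FPKM in ESC, 884 at passage 1, 1451 at passage 6 and 2759 in NPC. That sum did not set the R-NSC stages apart, and a gene at like levels in both of them cannot be prevalent in either. By single gene, PAX6 was at 0.265 FPKM in ESC, 67.8 at passage 1, 62.3 at passage 6 and 18.9 in NPC. SOX1 (LOC708561) was listed at 0 in ESC and was at 5.05 FPKM at passage 1, 2.85 at passage 6 and 0.307 in NPC. SOX2 and FABP7 were highest in NPC and NES at passage 6. Across all symbols, 9.21% were prevalent in ESC, 2.07% at passage 1, 7.62% at passage 6 and 6.59% in NPC.

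The ligands and FZD10 were low in ESC and present together in R-NSCP1. None of the 10 genes reached 3 FPKM in ESC, 10 did in R-NSCP1, 5 at passage 6 and 2 in NPC. The table holds nearly all its rows because they reach 3 FPKM in some stage, only 2 rows being lower, so each of the 10 genes had to be high somewhere, and their counts are a description. Their median level was 0.250 FPKM in ESC, 10.1 at passage 1, 2.73 at passage 6 and 0.323 in NPC, and the median over all genes was 9.97, 10.8, 10.8 and 10.1 FPKM in the same order. By highest stage, 6 of the genes peaked in R-NSCP1, 2 at passage 6 and 2 in NPC. By the rule of prevalence 5 belonged to R-NSCP1, namely WNT1, WNT4, WNT2B, WNT5B and FZD10, 1 to NPC, namely WNT7A, and none to ESC or R-NSCP6. Of the 10, the paper had singled out WNT1, WNT2B, WNT4, WNT8B and FZD10 on the same libraries, lists WNT7A among its NPC genes and also comments on WNT3A and WNT5B, so the count is not independent evidence of a direction.

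**Figure D1:**
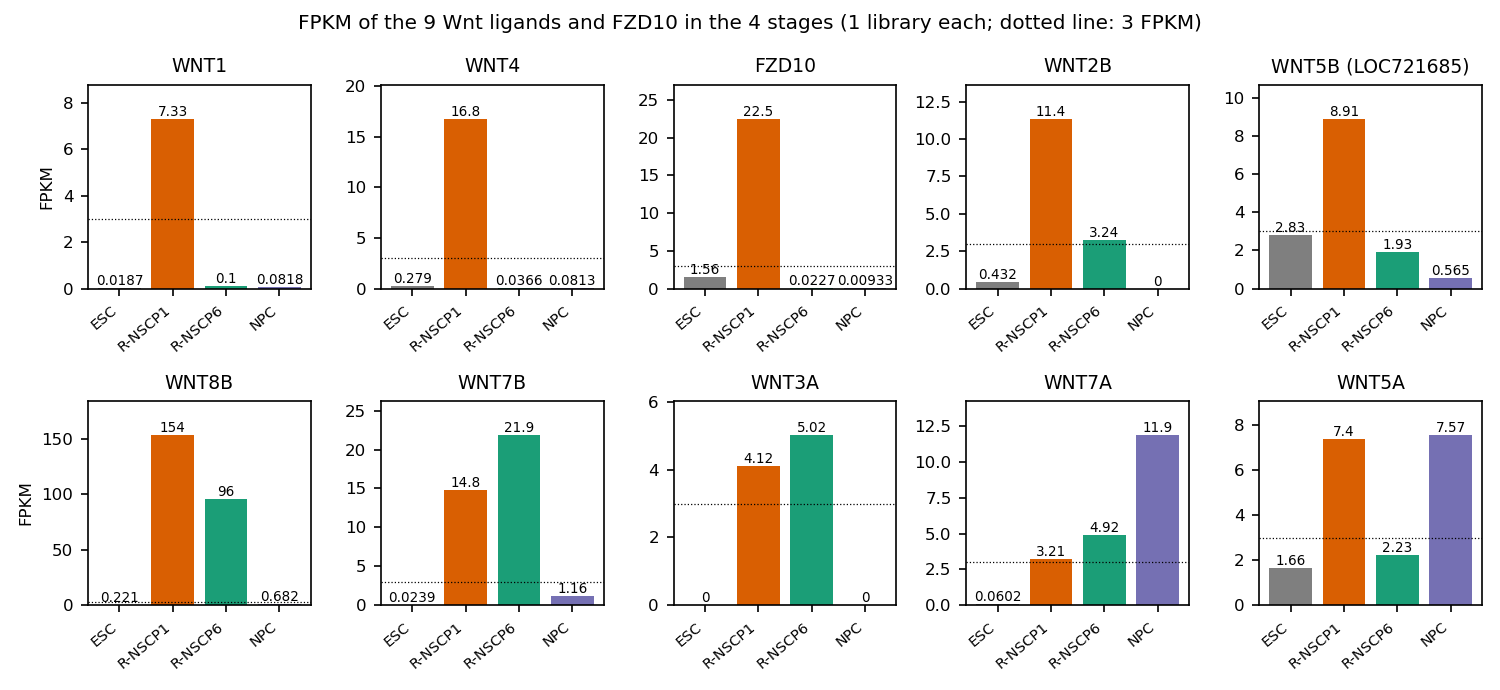
FPKM of each of the 9 Wnt ligands and FZD10 (vertical axis, linear, from 0, with its own range in each panel) in the 4 stages. Each bar is 1 library with its value above it, there are no error bars because there are no replicates, and the dotted line is at 3 FPKM. The first 5 panels are the genes prevalent in R-NSCP1, WNT8B, WNT7B and WNT3A have tall bars in both R-NSC stages, and WNT7A and WNT5A have their tallest bar in NPC.

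WNT1 is the ligand of the midbrain-hindbrain border and of the dorsal midline, and in the mouse its loss removes much of the midbrain. It was at 0.0187 FPKM in ESC, 7.33 at passage 1, 0.10 at passage 6 and 0.0818 in NPC. R-NSCP1 stood 73.2-fold over the second highest stage and held 97.3% of the FPKM summed over the 4 stages. WNT1 thus passed the minimum in a single library, at a modest level there, above 36.6% of all genes. The paper also shows qRT-PCR of WNT1 in the same stages, on cell samples other than those sequenced. Those measurements were not used here. In a later rhesus assembly, T2T-MMU8v2.0, WNT1 overlaps WNT10B, a ligand that was looked for and for which no value was used here. Since the sources used here do not state whether reads were counted by strand, reads from a shared stretch cannot be told apart.

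WNT4, a ligand of kidney, gonad and dorsal neural tube development that acts through more than one Wnt branch, had nearly the same profile at a higher level. It was at 0.279 FPKM in ESC, 16.8 at passage 1, 0.0366 at passage 6 and 0.0813 in NPC. The fold over the second highest stage, ESC, was 60.2, and R-NSCP1 held 97.7% of the sum over stages. WNT1 and WNT4 were each other's nearest neighbours in the table by shares of the 4 stages.

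WNT2B, a ligand of the cortical hem and of the eye margin, was not limited to the first passage. It was at 0.432 FPKM in ESC, 11.4 at passage 1 and 3.24 at passage 6 and was listed at 0 in NPC. R-NSCP1 held 75.6% of the sum over stages and R-NSCP6 21.5%, a 3.51-fold step between them.

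WNT5B, a relative of WNT5A that mostly works outside the beta-catenin branch, was the ligand with the highest level in ESC. It was at 2.83 FPKM in ESC, 8.91 at passage 1, 1.93 at passage 6 and 0.565 in NPC. Its R-NSCP1 level was 3.15-fold over ESC, the smallest step of the 5 genes prevalent in R-NSCP1, and WNT8B, at 1.60-fold over R-NSCP6, was the next gene outside the rule. WNT5B overlaps FBXL14, a ubiquitin ligase subunit, and LOC707320 in the later assembly. FBXL14 was at 3.99 FPKM in ESC, 11.0 at passage 1, 8.43 at passage 6 and 7.88 in NPC, so the profiles of the overlapping genes parted after R-NSCP1, and reads of the shared part cannot be told apart.

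WNT8B marks the cortical hem and the early hippocampal field in the mouse and human forebrain and was by far the most abundant ligand of both R-NSC stages. It was at 0.221 FPKM in ESC, 154 at passage 1, 96.0 at passage 6 and 0.682 in NPC. In R-NSCP1 it stood above 96.7% and in R-NSCP6 above 93.1% of all genes. The R-NSCP1 level was 693-fold over ESC, and the NPC level was 141-fold below R-NSCP6. Between the R-NSC stages R-NSCP6 was 1.60-fold below R-NSCP1, short of the 2-fold rule, and with FPKM scaled to the library sum the log2 ratio was -1.35 and passed it.

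WNT7B and WNT7A are closely related ligands of neural progenitors that also act on the brain's blood vessels as they grow in. WNT7B was at 0.0239 FPKM in ESC, 14.8 at passage 1, 21.9 at passage 6 and 1.16 in NPC. WNT7A was at 0.0602 FPKM in ESC, 3.21 at passage 1, 4.92 at passage 6 and 11.9 in NPC. The pair parted in NPC, where WNT7A was 2.42-fold higher than in R-NSCP6 and WNT7B 18.9-fold lower. Taken within each library, where scaling has no effect, WNT7B was 4.62 times WNT7A in R-NSCP1 and 4.45 times in R-NSCP6, whereas WNT7A was 10.3 times WNT7B in NPC. In ESC both genes were under 0.1 FPKM, and their ratio there is not read.

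WNT3A, the cortical hem ligand that the mouse hippocampus needs, was the member with the lowest peak. It was listed at 0 in ESC and NPC and was at 4.12 FPKM at passage 1 and 5.02 at passage 6. The 1.22-fold difference between the R-NSC stages turned round with FPKM scaled to the library sum, with or without the 20 highest rows.

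WNT5A, the best known ligand of the branch that works through ROR receptors and not through beta-catenin, was high in 2 separate stages. It was at 1.66 FPKM in ESC, 7.40 at passage 1, 2.23 at passage 6 and 7.57 in NPC. NPC was 3.40-fold over R-NSCP6, and R-NSCP6 was 3.32-fold below R-NSCP1. The order of NPC and R-NSCP1, 1.02-fold apart as deposited, turned round with FPKM scaled to the library sum. Set against its relative within each library, WNT5A was 0.589 times WNT5B in ESC, 0.830 times in R-NSCP1, 1.15 times in R-NSCP6 and 13.4 times in NPC. Another gene model, LOC144339251, overlaps WNT5A in the later assembly and was not analysed here.

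FZD10 is a Wnt receptor of the dorsal neural tube that is low in most adult tissues. It was at 1.56 FPKM in ESC, 22.5 at passage 1, 0.0227 at passage 6 and 0.00933 in NPC. The fold over the second highest stage, ESC, was 14.4. R-NSCP6 was 991-fold below R-NSCP1 as deposited, a ratio that rests on a value near 0 whose precision is unknown, and the log2 ratio of FPKM + 1 was -4.52. FZD10 had no overlapping gene in the later assembly. Among all genes prevalent in R-NSCP1, taken as 1 row per symbol, WNT1, WNT4 and FZD10 ranked 19, 20 and 33 of 254 by fold over the second stage, 16 of the genes before them having a second stage listed at 0, and WNT2B and WNT5B ranked 99 and 115.

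The step into the rosette stage had the same direction for every member. In R-NSCP1 against ESC, 10 of the 10 genes were higher, where 18.7% of all symbols were higher and 13.7% lower. None of the 10 reached 3 FPKM in ESC, and WNT1, WNT4, WNT5B and FZD10 reached it in R-NSCP1 alone. Those genes thus had a row only through R-NSCP1, and the count is a description. The median log2 ratio was 3.07 for the 10 genes and 0.05 for all genes. The ratios ran between 1.37 for WNT5B and 6.98 for WNT8B. With FPKM scaled to the library sum, the median of all genes moved to 0.96 and the share of symbols called higher to 49.6%, against 4.21% lower. The count of members stayed at 10, the most it could be. The 10 genes lay above the median of all genes under each of the 5 scalings.

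From the first to the sixth passage the members split. In R-NSCP6 against R-NSCP1, 6 genes were lower (WNT1, WNT2B, WNT4, WNT5A, WNT5B and FZD10), none was higher, and WNT3A, WNT7A, WNT7B and WNT8B stayed within 2-fold. Of all symbols, 13.2% were lower and 15.0% higher, or 33.2% lower and 5.36% higher with FPKM scaled to the library sum, which also brought WNT8B under the rule. The log2 ratios were -4.52 for FZD10, -4.10 for WNT4, -2.92 for WNT1, -1.76 for WNT5B, -1.54 for WNT2B and -1.38 for WNT5A. The remaining ratios were -0.67 for WNT8B, 0.23 for WNT3A, 0.49 for WNT7A and 0.53 for WNT7B, and the last 3 changed sign with FPKM scaled to the library sum. The ligands named above for the cortical hem are not a full set of hem genes, and they did not move together. WNT3A and, as deposited, WNT8B stayed within 2-fold and WNT2B did not. FZD10 and the border ligand WNT1 were near 0 at passage 6.

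In the long culture with FGF2 and EGF most ligands were low. In NPC against R-NSCP6, 4 genes were lower (WNT2B, WNT3A, WNT7B and WNT8B) and 2 were higher (WNT5A and WNT7A), while 20.0% of all symbols were lower and 15.1% higher. The other 4 genes were under 3 FPKM in both stages. With FPKM scaled to the library sum 9.21% of symbols were lower and 28.6% higher, and WNT2B no longer reached 3 FPKM. Against ESC, NPC had the same 2 genes higher and none lower, beside 22.6% of all symbols higher and 23.8% lower, or 43.7% and 8.83% after scaling to the library sum.

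**Figure D2:**
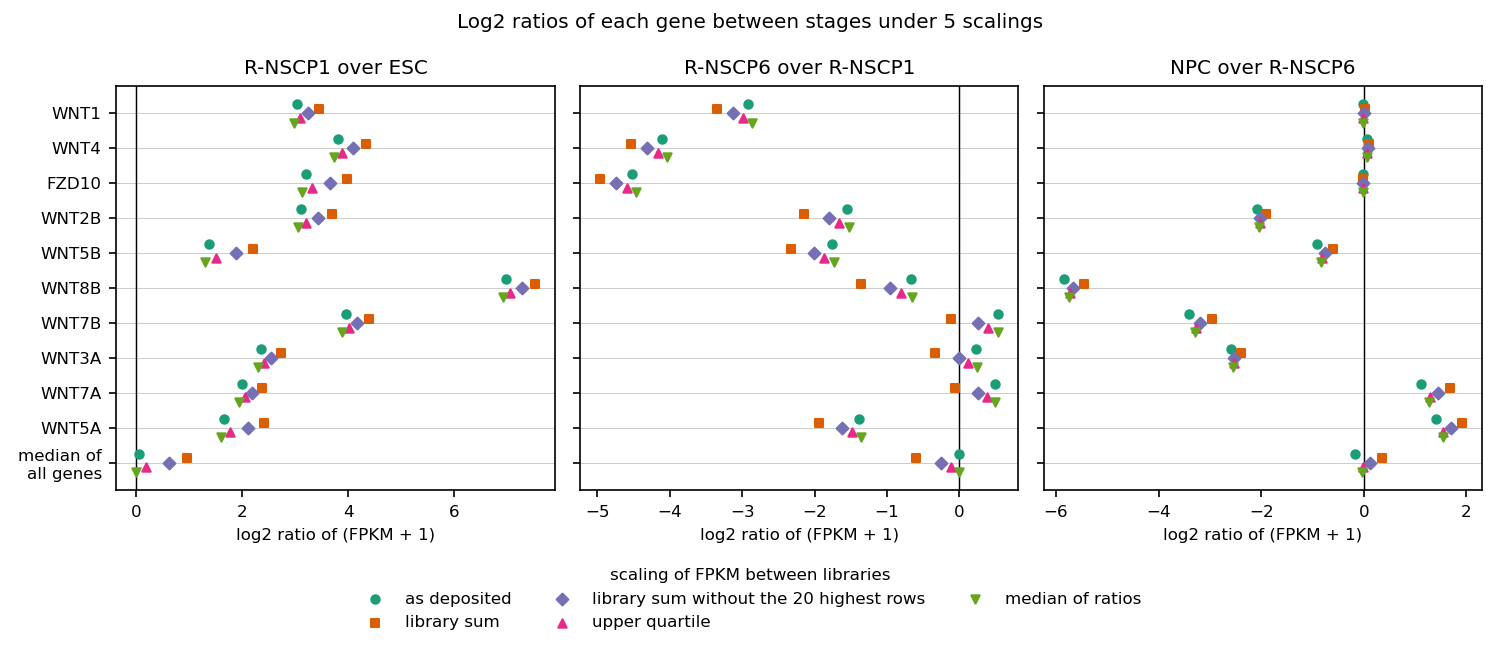
Log2 ratio of FPKM + 1 (horizontal axis) for each gene and for the median of all genes (rows) in R-NSCP1 over ESC, R-NSCP6 over R-NSCP1 and NPC over R-NSCP6, under 5 scalings between libraries (markers). All genes lie right of 0 in the left panel, WNT3A, WNT7A and WNT7B change side in the middle panel, and WNT5A and WNT7A lie more than 1 right of 0 in the right panel, where WNT4, under 3 FPKM in both stages, lies just right of 0, while the median of all genes moves between -0.00 and 0.96 in the left panel.

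Shares within a library do not depend on the scaling and show how the make-up of the ligands differed between stages. The 9 ligands summed to 5.53 FPKM in ESC, 227 at passage 1, 135 at passage 6 and 22.0 in NPC. In ESC, WNT5B with 51.1% and WNT5A with 30.1% made up most of the small sum. WNT8B took 67.5% of the sum in R-NSCP1 and 70.9% at passage 6, against 4.01% in ESC and 3.10% in NPC. In NPC, WNT7A held 54.0% and WNT5A 34.4%. Without WNT8B the other 8 ligands summed to 5.31 FPKM in ESC, 74.0 at passage 1, 39.4 at passage 6 and 21.3 in NPC, and the leading ligand among them was WNT4 with 22.7% at passage 1, WNT7B with 55.6% at passage 6 and WNT7A with 55.7% in NPC. At passage 1 the lead was narrow, since WNT7B held 20.1% there and WNT4 was 1.13 times WNT7B, a difference with no replicate check.

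ESCs grew on mouse fibroblasts, cells that can bring RNA of their own. In the list of 5 neural crest and mesenchyme markers with a row, the sum was 24.2 FPKM in ESC, 25.6 at passage 1, 6.44 at passage 6 and 6.19 in NPC. In ESC nearly all of it was FOXD3, at 12.2 FPKM, and the collagen gene COL1A1, at 11.7 FPKM. FOXD3 is a factor of neural crest and of pluripotent cells, so the sum there is no measure of fibroblasts. COL1A1, a mesenchyme marker, was at 3.97 FPKM at passage 1, 2.64 at passage 6 and 0.787 in NPC. It was prevalent in ESC as deposited and in no stage with FPKM scaled to the library sum. The other 3 genes, COL3A1, LUM and TFAP2A, lay between 0.124 and 0.151 FPKM in ESC. The part of feeder RNA in the ESC levels of WNT5A and WNT5B was not tested.

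The receptors had more than 1 pattern. All 10 Frizzled genes had a row, and together they summed to 132 FPKM in ESC, 140 at passage 1, 80.7 at passage 6 and 122 in NPC, so that their sum varied far less than that of the ligands. FZD10 made up 1.18% of it in ESC, 16.1% at passage 1, 0.0282% at passage 6 and 0.00764% in NPC. Of the 9 other receptors, 3 were higher and 2 lower in R-NSCP1 than in ESC, beside 18.7% and 13.7% of all symbols. In R-NSCP6 against R-NSCP1, 1 of them was higher and 3 were lower, beside 15.0% and 13.2% of all symbols. The median log2 ratios of these 9 were 0.01 and -0.47. With FPKM scaled to the library sum, 6 of the 9 were lower in R-NSCP6 than in R-NSCP1, beside 33.2% of all symbols, and the median was -1.13. FZD7, which is known for its role in pluripotent cells, led in ESC with 82.4 FPKM and was at 22.4 at passage 1, 16.3 at passage 6 and 23.7 in NPC. FZD5 (LOC710796) was also prevalent in ESC, with 16.9 FPKM there and at most 0.545 FPKM in the other stages. FZD3, a receptor of axon growth and planar polarity, led in R-NSCP1 with 36.7 FPKM, and FZD1 led in NPC with 49.1 FPKM. FZD10 alone of the 10 was prevalent in R-NSCP1, as deposited and under the 4 other scalings.

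**Figure D3:**
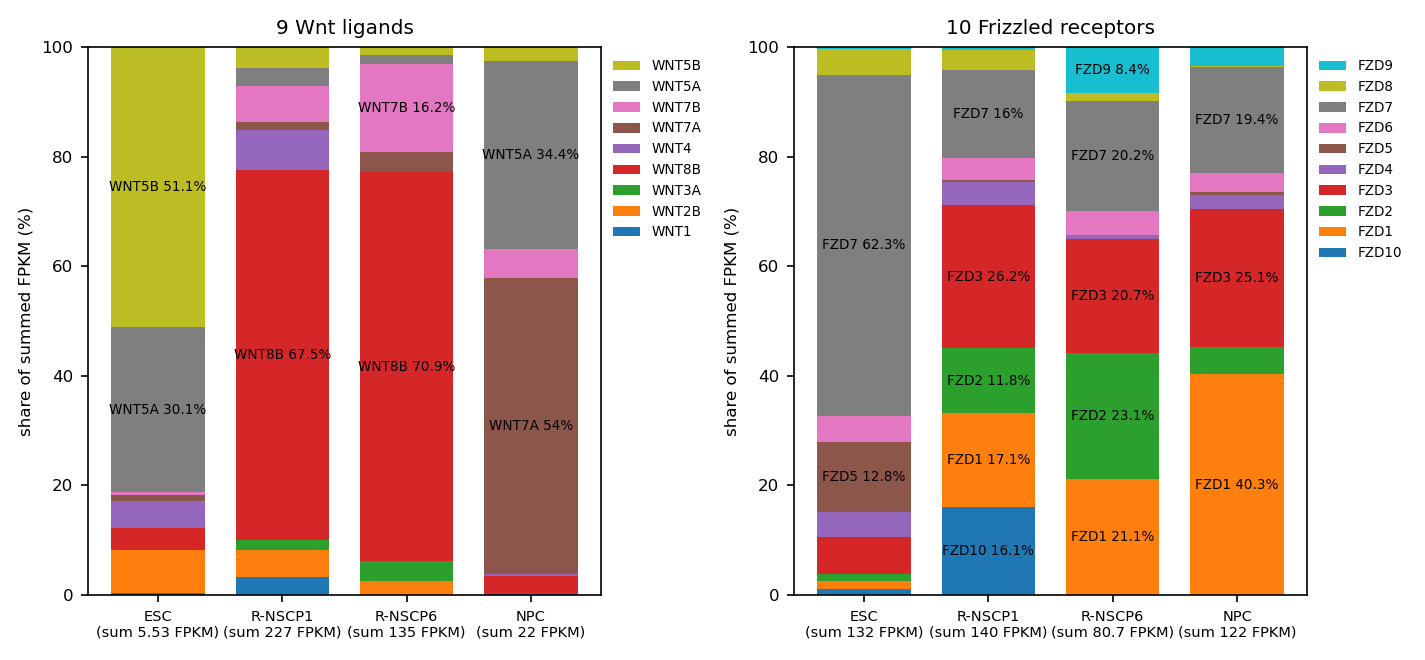
Share of the summed FPKM of the 9 ligands (left) and of the 10 Frizzled receptors (right) held by each gene (vertical axis, percent) in the 4 stages, with the sum in FPKM under each bar. WNT8B fills 67.5% and 70.9% of the ligand bar in the R-NSC stages and WNT7A 54.0% in NPC, and FZD10 is visible as a large block only in R-NSCP1, at 16.1%.

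Of the 10 other Wnt ligands looked for, 3 had a row, and all were low. WNT9A (LOC696326), which lies next to WNT3A in the later assembly, was listed at 0 in ESC and was at 3.16 FPKM at passage 1, 4.67 at passage 6 and 0.612 in NPC. WNT3 was at 0.963 FPKM in ESC, 3.17 at passage 1, 1.94 at passage 6 and 2.84 in NPC. WNT8A was at 1.55 FPKM in ESC, 3.01 at passage 1, 0.0430 at passage 6 and 0.0117 in NPC. These 3 genes are the whole of that list and were named for that reason. The neighbours WNT3A and WNT9A had like profiles, under 1 FPKM in ESC and NPC and above 3 FPKM in both R-NSC stages.

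Among the genes needed to release Wnt proteins, WLS stood out. It encodes the carrier that takes every lipid-modified Wnt to the cell surface and is itself a Wnt target in some tissues. WLS was at 9.20 FPKM in ESC, 285 at passage 1, 273 at passage 6 and 195 in NPC. As deposited, it was the only 1 of 6 secretion genes with a row that was higher in R-NSCP1 than in ESC, beside 18.7% of all symbols. Unlike the summed ligands, WLS stayed high in NPC. The retromer subunit genes VPS35, VPS26A and VPS29 and the sorting nexin gene SNX3, which return the carrier from endosomes, lay between 28.4 and 91.2 FPKM in every stage.

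R-spondins are secreted amplifiers that keep Frizzled receptors at the membrane by way of LGR receptors. RSPO1 (LOC713976) was at 0.474 FPKM in ESC, 108 at passage 1 and 91.3 at passage 6 and was listed at 0 in NPC. RSPO2 was at 0.303 FPKM in ESC, 119.7 at passage 1, 289.9 at passage 6 and 0.838 in NPC. RSPO3 (LOC712288) was at 0.727 FPKM in ESC, 72.0 at passage 1, 281 at passage 6 and 0.0730 in NPC. All 3 were thus high in both R-NSC stages, as WNT8B was and WNT1 was not. RSPO2 and RSPO3 were prevalent in R-NSCP6, RSPO2 not with FPKM scaled to the library sum, with or without the 20 highest rows. Their receptor gene LGR4 was lowest in R-NSCP6, with 37.8 FPKM in ESC, 11.3 at passage 1, 2.25 at passage 6 and 20.5 in NPC, and LGR5 was prevalent in ESC at 5.65 FPKM and at most 2.64 FPKM elsewhere. Of the whole list of R-spondins, LGRs and receptor turnover genes, 6 of 9 had a row. Of these, 3 were higher and 2 lower in R-NSCP1 than in ESC, beside 18.7% and 13.7% of all symbols.

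Few co-receptors passed the rules of size as deposited. Of 6 genes, none was higher and 1 was lower in R-NSCP1 than in ESC, beside 18.7% and 13.7% of all symbols. In R-NSCP6 against R-NSCP1, 2 were lower, beside 13.2% of all symbols. RYK and PTK7, receptors of the branches outside beta-catenin, were between 20.3 and 33.4 FPKM in every stage. ROR1, a WNT5A receptor, was at 14.9 FPKM in ESC, 6.72 at passage 1, 1.43 at passage 6 and 0.0104 in NPC. Its partner ROR2 was at 5.21 FPKM in ESC, 9.77 at passage 1, 6.52 at passage 6 and 0.0704 in NPC. Both ROR genes were thus near 0 in NPC, the stage in which WNT5A had 7.57 FPKM. LRP6, the main co-receptor of the beta-catenin branch, was at 13.1 FPKM in ESC, 11.9 at passage 1, 2.06 at passage 6 and 7.89 in NPC. ROR2 and LRP6 were named after their values were seen.

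Most genes of the proteins that carry the signal inside the cell had mRNA in every stage. All 15 cytoplasmic transducers and destruction complex genes had a row, and 13 reached 3 FPKM in ESC, 15 at passage 1, 15 at passage 6 and 14 in NPC. As deposited, 1 was higher and none lower in R-NSCP1 than in ESC, beside 18.7% and 13.7% of all symbols, and the median log2 ratio of the list was 0.38. CTNNB1, the gene of beta-catenin, was at 135 FPKM in ESC, 219 at passage 1, 252 at passage 6 and 175 in NPC. The casein kinase genes CSNK1A1, CSNK1D and CSNK1E, the kinase gene GSK3B and the scaffold gene DVL3 lay between 13.2 and 67.2 FPKM in every stage. The 1 higher gene was APC2, a neural relative of the tumour suppressor APC, named after its values were seen, at 0.0512 FPKM in ESC, 5.63 at passage 1, 24.6 at passage 6 and 9.36 in NPC.

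At the nuclear end, LEF1 had the profile of WNT3A. LEF1 encodes a factor that binds beta-catenin on target genes, and in the mouse the dentate gyrus of the hippocampus fails to form without it. It was at 0.138 FPKM in ESC, 16.8 at passage 1, 20.7 at passage 6 and 0.0579 in NPC. TCF7L1, the repressive family member of pluripotent cells, was prevalent in ESC at 61.2 FPKM and was at 21.5 at passage 1, 20.5 at passage 6 and 8.68 in NPC. TCF7L2 was at 17.0 FPKM in ESC, 27.1 at passage 1, 28.8 at passage 6 and 35.0 in NPC. Of the co-factors, PYGO1 was prevalent in R-NSCP1 at 9.91 FPKM. In all, 6 of the 8 nuclear genes had a row, and 3 were higher and 1 lower in R-NSCP1 than in ESC, beside 18.7% and 13.7% of all symbols.

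Genes known as feedback regulators or targets of the pathway had their highest level in R-NSCP1 in 9 of 13 cases. Of these 13 genes with a row, in a list of 15, 9 were higher and 1 lower in R-NSCP1 than in ESC, beside 18.7% and 13.7% of all symbols. In R-NSCP6 against R-NSCP1 none was higher and 8 were lower, beside 15.0% and 13.2% of all symbols. The median log2 ratios of the 13 genes were 2.30 and -1.50, beside 0.05 and -0.00 over all genes. As deposited 5 of them were prevalent in R-NSCP1, or 9 with FPKM scaled to the library sum, beside 2.07% and 5.49% of all symbols. AXIN2, the scaffold gene that is used as a general reporter of beta-catenin signalling, was at 5.21 FPKM in ESC, 44.2 at passage 1, 14.9 at passage 6 and 11.8 in NPC. SP5, a zinc finger repressor, was at 1.65 FPKM in ESC, 8.84 at passage 1, 0.223 at passage 6 and 0.140 in NPC. The receptor gene TNFRSF19 was at 2.01 FPKM in ESC, 22.4 at passage 1, 2.44 at passage 6 and 5.10 in NPC. These 3 genes were highest in the stage in which WNT1, WNT4 and FZD10 were highest. NKD1, a feedback inhibitor, was at 0.734 FPKM in ESC, 7.51 at passage 1, 1.53 at passage 6 and 2.13 in NPC. The cell cycle gene CCND1, which has many other inputs, was at 12.2 FPKM in ESC, 67.2 at passage 1, 52.0 at passage 6 and 29.6 in NPC. AXIN2 and NKD1 are among the genes the paper picked on these libraries, and NKD1 was named after its values were seen. For AXIN2 the paper also reports prevalence in R-NSCP1 by qRT-PCR, on cell samples other than those sequenced. An intermediate passage stood there in place of the late one, and those measurements were not used here. Among genes with a row, LEF1, TCF7, LGR5, ZNRF3, the dorsal genes MSX1 and MSX2 and the 3 R-spondin genes stand in more than 1 of the lists, so the lists are not separate. TCF7, ZNRF3 and MSX1 are named only for that overlap.

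In the planar polarity branch, 4 of 6 genes with a row were higher and 1 was lower in R-NSCP1 than in ESC, beside 18.7% and 13.7% of all symbols. VANGL2, a core polarity membrane protein, was at 16.8 FPKM in ESC, 63.5 at passage 1, 73.7 at passage 6 and 57.1 in NPC. PRICKLE1 was prevalent in ESC, with 24.4 FPKM there and at most 1.65 FPKM elsewhere. DAAM2, a formin that binds Dishevelled and another gene the paper picked, was prevalent in R-NSCP1, with 2.27 FPKM in ESC, 11.7 at passage 1, 4.32 at passage 6 and 5.14 in NPC.

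How many genes of most of these lists passed the rule in R-NSCP1 against ESC depended on the scaling. The count of the 10 genes was already at 10 there as deposited, so scaling to the library sum could not raise it. With FPKM scaled to the library sum, 11 of 15 cytoplasmic genes were higher in that comparison in place of 1, 4 of 6 secretion genes in place of 1, 3 of 6 co-receptors in place of none, 5 of 6 nuclear genes in place of 3 and 12 of 13 feedback and target genes in place of 9. Of all symbols, 49.6% were higher and 4.21% lower with that scaling, in place of 18.7% and 13.7%, so the co-receptor count is about that share. The other Frizzled receptors went to 4 higher and 1 lower and the R-spondins, LGRs and receptor turnover genes to 4 higher and none lower, in place of 3 and 2 in each list. In R-NSCP6 against R-NSCP1, 33.2% of all symbols were lower and 5.36% higher with that scaling. There 4 of 6 co-receptors were lower in place of 2 and 11 of 13 feedback and target genes in place of 8. The roof plate, hem and dorsal midbrain markers had 2 higher and 10 lower. In R-NSCP1 against ESC those markers stayed at 16 of 16 higher and the planar polarity genes at 4 of 6. FZD7, FZD1, TCF7L1 and LGR5 were prevalent in no stage with that scaling, whereas AXIN2, SP5, TNFRSF19, NKD1 and PYGO1 remained prevalent in R-NSCP1 under each of the 5 scalings.

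**Figure D4:**
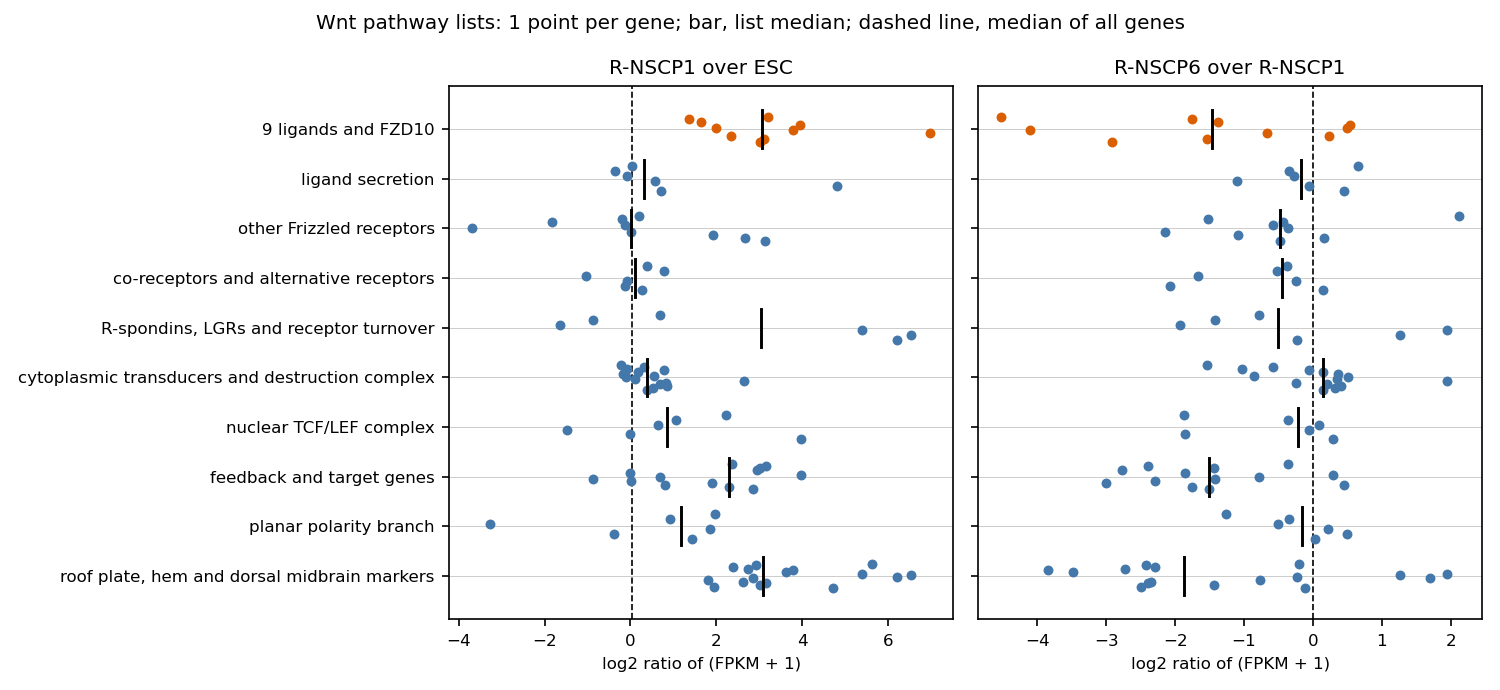
Log2 ratio of FPKM + 1 (horizontal axis) of each gene in 10 lists (rows, 1 point per gene, vertical jitter without meaning) in R-NSCP1 over ESC (left) and R-NSCP6 over R-NSCP1 (right). Black bars are list medians and the dashed line is the median of all genes, 0.05 at left and -0.00 at right. The 9 ligands with FZD10, the feedback and target genes and the roof plate, hem and dorsal midbrain markers have medians of 3.07, 2.30 and 3.09 at left and of -1.46, -1.50 and -1.87 at right.

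Markers of the places where these ligands are made in the embryo were also high in R-NSCP1. Of 16 roof plate, hem and dorsal midbrain markers with a row among 18, 16 were higher in R-NSCP1, set against ESC, beside 18.7% of all symbols. None of the 16 reached 3 FPKM in ESC, where the highest was at 2.02. Each thus had a row only through a later stage, and the count is a description. In R-NSCP6 against R-NSCP1, 3 were higher and 10 lower, beside 15.0% and 13.2% of all symbols. The sum of the 16 markers was 6.75 FPKM in ESC, 555 at passage 1, 879 at passage 6 and 59.8 in NPC, with 3 markers listed at 0 in ESC, none in R-NSCP1, 1 at passage 6 and 3 in NPC. The 3 R-spondin genes carried the rise of that sum between the R-NSC stages: the other 13 markers summed to 5.25 FPKM in ESC, 255 at passage 1, 217 at passage 6 and 58.8 in NPC. That smaller sum rests mostly on ZIC1 and, at passage 6, also on BMP7, and hides that 10 markers were lower there. BMP7 went the other way, with 2.02 FPKM in ESC, 20.9 at passage 1, 69.8 at passage 6 and 43.2 in NPC. As deposited, 8 of the 16 markers were prevalent in R-NSCP1 and 2, the R-spondin genes above, in R-NSCP6, beside 2.07% and 7.62% of all symbols. LMX1A, a roof plate and hem factor, was at 0.133 FPKM in ESC, 28.9 at passage 1, 26.5 at passage 6 and 0.0528 in NPC. ZIC1, a dorsal midline factor, was at 1.70 FPKM in ESC, 132 at passage 1, 114 at passage 6 and 2.58 in NPC. These 2 were within 2-fold between the R-NSC stages, like WNT8B. PAX3, a dorsal neural tube factor, was at 0.0558 FPKM in ESC, 13.5 at passage 1, 0.00998 at passage 6 and 0.0328 in NPC, like WNT1 and WNT4. The 4 choroid plexus markers with a row among 5 summed to 0.881 FPKM in ESC, 522 at passage 1, 178 at passage 6 and 0.613 in NPC, most of it TTR, and the 5 cortical neuron markers summed to 0.668, 39.0, 94.9 and 10.4 FPKM in the same order. The part of these cell types in the ligand levels was not tested.

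For each gene, the 5 genes of most similar profile were taken by the distance between the 4 shares that each stage held of a gene's summed FPKM, among 11243 genes of at least 5 FPKM in some stage. With only 4 points, 1 per library, such likeness is a description. WNT1 was closest to WNT4 (distance 0.0191), the lipoxygenase gene ALOX15 (0.0202) and PAX3 (0.0247). FZD10 was closest to the collectin gene COLEC12 (0.0618), WNT4 (0.0651) and ALOX15 (0.0721). These profiles have in common that nearly the whole sum lies in R-NSCP1.

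WNT3A was closest to LEF1, at a distance of 0.00595, with the adaptor gene DOK6 next at 0.0486. WNT7B was closest to NR2E1 (0.0336), which encodes the neural stem cell receptor TLX, and WNT8B to the uncharacterized LOC100429804 (0.0197) and the retinoic acid binding protein gene CRABP1 (0.0385), with the early neural factor SOX1 (LOC708561) at 0.050. WNT2B was closest to TPBG (LOC693944, 0.0221) and had TTR, the choroid plexus marker, at 0.0453. WNT7A was closest to the glutamate receptor gene GRIK1 (LOC705699, 0.0127), WNT5A to ZSWIM6 (0.0293) and WNT5B to BMF (LOC706239, 0.0501). Within the set, WNT7B and WNT3A were 0.0720 apart, and WNT8B and WNT2B 0.222. With Pearson's correlation of log2 values in place of the distance, between 0 and 2 of the 5 neighbours of a gene were shared, so these names depend on the measure.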

How the data were processed

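Poly-A mRNA was measured in 4 libraries, 1 per stage. Per the labels and the study's methods, the authors mapped paired-end reads to MMUL_1.0 and estimated FPKM for UCSC known genes. The submitters' processing notes name TopHat2 2.0.5, Bowtie 0.12.8.0 and Cufflinks 2.0.2. The deposited FPKM values were used as they stand. No counts or counting intervals lie behind them here, and steps of whole reads could not be recovered from the low values. Whether the authors counted by strand is unknown. The miRNA libraries of the same series were not used.

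Of 5048 LOC rows, 3327 were named from RefSeq genes of T2T-MMU8v2.0, for names and neighbours only. For 128 symbols with more than 1 row, lists used the row of highest mean, and a symbol was counted once in shares of all symbols. The 10 genes and the gene lists were chosen with earlier results of these data known. All 10 genes are named. In other lists, genes that were prevalent or had at least 20 FPKM in some stage could be named, up to 6 per list by highest level, and up to 5 genes of like profile per gene. Genes outside this rule are marked in the text.

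Alternatives were 4 scalings between libraries (library sum, library sum without the 20 highest rows, upper quartile, median of ratios), folds of 1.5 and 4, minimum values of 1 and 5 FPKM, pseudocounts of 0.1 and 3 in place of 1, a mean of at least 10 FPKM, the mean over rows of a symbol, and Pearson's correlation for likeness. Counts over all symbols and in the lists under each scaling, and a sum without the R-spondins, were added after the data were seen. How often the rules call a gene wrongly in these libraries was not tested. Python 3.11.15, numpy 2.4.6, pandas 2.3.3 and matplotlib 3.10.9 were used.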

Additional observations from a re-analysis of the deposited data

How the results depend on the processing

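No paired analysis was possible because each stage had 1 library, and for the same reason no replicate could be left out. The number of the 10 genes prevalent in R-NSCP1, 5 as reported, was 3 with a fold of at least 4 (WNT1, WNT4 and FZD10) and 5 or 6 under every other fold, minimum and scaling run. Over the 5 scalings, the number lower in R-NSCP6 than in R-NSCP1 by the 2-fold rule was 6 or 7, and the number with their highest level in R-NSCP1 was 6, 7 or 9, the last with FPKM scaled to the library sum. The median log2 ratio of the 10 genes in R-NSCP1 over ESC, 3.07 as reported, was 4.91 with a pseudocount of 0.1 and 1.92 with a pseudocount of 3. With a mean of at least 10 FPKM only WNT8B was left, with 6.98 in R-NSCP1 over ESC, -0.67 in R-NSCP6 over R-NSCP1 and -5.85 in NPC over R-NSCP6. With that filter the median in R-NSCP6 over R-NSCP1 turned round for the roof plate, hem and dorsal midbrain markers, to 0.57 from -1.87 as reported, and for the cortical neuron markers, to -0.078 from 2.23, since fewer genes were left. Scaling to the library sum moved the all-gene median log2 ratio to 0.96 in R-NSCP1 over ESC, -0.59 in R-NSCP6 over R-NSCP1 and 0.36 in NPC over R-NSCP6. Of the single genes' called ratios, none changed sign under a scaling or pseudocount. Values below about 1 FPKM are of unknown precision, so folds over them are rough.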
